A study of Arabidopsis thaliana with 9 samples.

Results

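Wild-type seedlings of Arabidopsis thaliana, ecotype Col-0, that had stood for 12 h in liquid medium with doxycycline at 25 µg/ml were compared with seedlings of the same line given the same medium at 0 µg/ml. Both groups had been grown for 14 days on solid MS medium at reduced strength, were treated in the light and carried no mutant allele. Each group had 3 libraries, described by the submitters as biological replicates, so the comparison used 6 of the 9 samples of the series. The other 3 samples were mrpl1-1 mutant seedlings, and they enter below only where transcript length is described. Polyadenylated RNA of whole seedlings was sequenced on an Ion Torrent Proton instrument, and the deposited values were FPKM, fragment counts scaled to transcript length and to the total of mapped fragments. Of 33557 loci in the table, 19073 had a mean of at least 1 FPKM over the 6 libraries, and these were tested on the log2(FPKM + 1) scale.

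Doxycycline is a tetracycline antibiotic that blocks translation on bacterial-type ribosomes, and plant mitochondria and chloroplasts both keep ribosomes of that type. When mitochondria of plants fail, a signal to the nucleus, called the mitochondrial retrograde response, turns on genes such as AOX1A, the alternative oxidase that lets electrons bypass part of the respiratory chain. NAC transcription factors anchored in the endoplasmic reticulum are known to carry this signal and to bind a short promoter element, the mitochondrial dysfunction motif. The questions here were which genes and pathways differed after 12 h, and whether the differences followed the length of the transcript.

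With doxycycline, 22 genes rose and 13 fell at a Benjamini-Hochberg adjusted p under 0.05 in limma, which is 0.115% and 0.0682% of the genes tested. At an unadjusted p under 0.05, 732 genes (3.84%) were higher and 887 (4.65%) were lower. The 3 doxycycline values lay wholly above the 3 control values for 1624 genes (8.51%) and wholly below them for 1427 (7.48%). These shares over all genes tested are the background for the counts of lists and families below. Over all 19073 genes the median log2 difference was 0.0025, close to 0. The 10 most abundant transcripts, which included RBCS1A, the small subunit of Rubisco, and CAB1, a chlorophyll-binding antenna protein, all had an adjusted p above 0.70.

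The genes that rose included transporters, conjugating enzymes and mitochondrial proteins, and the promoters of several of them held the mitochondrial dysfunction motif. The motif was searched as CTTGNNNNNCANG on both strands of the 250 bases before the annotated start. It was present in 6 of the 21 risen genes that had a promoter in the annotation (28.6%) and in 0 of 12 fallen ones, against 1.27% of the 18425 promoters of tested protein-coding genes. The matches are shown first because they are a property of the risen genes that the expression values did not use. Each window is 60 bases upstream of the gene, 5′ to 3′ on the strand of the gene, from RefSeq TAIR10.1, with the match in capitals.
ABCB11, chr1:523426-523485, plus strand: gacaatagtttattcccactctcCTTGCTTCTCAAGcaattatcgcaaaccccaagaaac
AT2G04050, first match, chr2:1339647-1339706, minus strand: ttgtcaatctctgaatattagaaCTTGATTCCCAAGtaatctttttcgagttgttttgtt
AT2G04050, second match, chr2:1339588-1339647, minus strand: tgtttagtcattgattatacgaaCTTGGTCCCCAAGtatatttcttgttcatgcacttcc
NDB2, chr4:2572325-2572384, plus strand: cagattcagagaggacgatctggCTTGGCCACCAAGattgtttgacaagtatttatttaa
AT2G03130, chr2:940547-940606, plus strand: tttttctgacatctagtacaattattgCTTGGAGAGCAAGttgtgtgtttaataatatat
AT2G38823, chr2:16223895-16223954, plus strand: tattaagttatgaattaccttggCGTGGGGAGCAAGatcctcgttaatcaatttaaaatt
AT5G54100, chr5:21956661-21956720, minus strand: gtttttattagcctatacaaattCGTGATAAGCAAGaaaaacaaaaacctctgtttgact
In AT2G38823 and AT5G54100 the match lay on the opposite strand. The share in the 19 tested members of the retrograde list was 36.8% (7 of 19), and it included UPOX, NDA1, NAC017, HSP23.5 and HSP23.6-MITO beside NDB2 and AT2G04050. Because the motif is known from the retrograde response, the share in this list is a description and not an independent result. A match describes letters and is not evidence of binding.

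ABCB11 (AT1G02520, chromosome 1, 523536 to 529069, plus strand), a P-glycoprotein of the ABC transporter superfamily, gave the clearest rise among genes detected in every library. It was listed at 19.1, 16.1 and 15.4 FPKM with doxycycline, against 2.64, 2.59 and 1.88 FPKM in controls. Every doxycycline library was above every control library, by 7.12 times on the group means. The log2 difference was 2.41 ± 0.16 (SE; limma adjusted p = 0.00444), and the call held in all 20 alternative fits that included the gene. Its gene model is 4310 nt long, and taking out the length trend described below left the log2 difference at 2.34. ABCB4 (AT2G47000), an auxin transporter of the same subfamily, was listed at 38.7, 31.5 and 37.8 FPKM with doxycycline, against 10.9, 11.2 and 13.5 FPKM in controls. ABCB4 rose with an adjusted p of 0.0128, and the call was kept only in the fit without control 3 when libraries were left out one at a time, with a highest adjusted p of 0.106. ABCA7 (AT3G47780), an ABC transporter of subfamily A, was listed at 15.04, 12.2 and 10.5 FPKM with doxycycline, against 3.43, 3.23 and 4.23 FPKM in controls. Its adjusted p was 0.0271 and reached 0.177 without doxycycline 2.

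Whether a call held with 1 library left out was asked for all 35 genes. Such a fit has fewer libraries, so a call can be lost with little change in the difference. The log2 difference stayed between 1.02 and 1.09 for NDB2 and between 0.724 and 0.779 for DJ1A. For AT12CYS-2 it ranged more widely, from 2.72 to 3.29. Without each of the 6 libraries in turn, 4 genes kept the call throughout (ATCG00230, AT1G74456, ABCB11 and AT3G54530), 31 lost it at least once, and 0 changed direction. UGT84A1 and AT5G46900 lost it in all 6 of these fits. For ATCG00230 and AT1G74456 the call rests on very few fragments. Divided by the FPKM step of each library, the values above 0 of either locus stood in the ratio 1 to 2 to 1 within 0.002, the pattern that 1, 2 and 1 fragments on a short locus would give. With only protein-coding genes of at least 300 nt in the fit, which leaves both out, 52 genes were called, 33 of them among the 35. Control 3, the shallowest library, acted the other way: without it 79 genes passed, 38 higher and 41 lower.

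Among the efflux carriers of the MATE family 1 gene rose, AT2G04050, which has near copies beside it on chromosome 2. AT2G04050 was listed at 24.3, 21.6 and 18.6 FPKM with doxycycline, against 2.37, 0.483 and 1.57 FPKM in controls (log2 difference 3.26 ± 0.29, adjusted p = 0.0128). DTX1 (AT2G04040) was listed at 15.9, 10.7 and 10.2 FPKM with doxycycline, against 4.58, 3.44 and 4.32 FPKM in controls, and it did not pass (adjusted p = 0.0710). AT2G04070 was listed at 5.61, 3.79 and 3.11 FPKM with doxycycline, against 0.439, 0.313 and 0.775 FPKM in controls (adjusted p = 0.0710). Without doxycycline 1 the adjusted p of AT2G04050 was 0.125. All 3 genes had groups that did not overlap, and reads may be split among them because the copies are alike. Over all genes tested, 0.115% were called higher, 8.51% lay wholly above the controls and 7.48% wholly below. Across the 38 tested genes with a MATE product name, 1 was called higher, 8 lay wholly above the controls and 1 wholly below, and the median log2 difference was 0.16. FRD3, the citrate carrier that loads iron into the xylem, was among the 8, at 5.80, 5.79 and 4.79 FPKM with doxycycline, against 3.22, 3.70 and 3.18 FPKM in controls (adjusted p = 0.373).

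Enzymes that attach glutathione, sugars or acyl groups to small molecules supplied 6 of the genes that rose. GSTU24 (AT1G17170), a tau-class glutathione transferase, was listed at 96.7, 79.7 and 77.8 FPKM with doxycycline, against 20.4, 15.5 and 24.9 FPKM in controls (log2 difference 2.03 ± 0.18, adjusted p = 0.0128). Its neighbour GSTU25 (AT1G17180) was listed at 94.0, 83.1 and 53.5 FPKM with doxycycline, against 7.46, 7.70 and 13.5 FPKM in controls (adjusted p = 0.0146). The next gene in the row, GSTU26 (AT1G17190), went the other way without passing, at 4.45, 7.01 and 4.52 FPKM with doxycycline, against 9.93, 9.52 and 7.89 FPKM in controls (adjusted p = 0.395). Near-identical copies of this family can share reads, so the split between GSTU24 and GSTU25 is uncertain. GSTU9 (AT5G62480) also rose, with 25.6, 30.2 and 20.4 FPKM with doxycycline, against 4.43, 4.79 and 8.39 FPKM in controls (adjusted p = 0.0412). Without doxycycline 1 the adjusted p was 0.106 for GSTU24, 0.1235 for GSTU25 and 0.2765 for GSTU9. Of 49 glutathione transferases tested, 12 were higher and 8 lower at an unadjusted p under 0.05, and the family median was 0.01. The family therefore divided: GSTU1, GSTU4, GSTU8, GSTU11 and GSTU22 were higher at adjusted p values of 0.0797 to 0.309, while GSTF14, GSTU14, GSTU27 and GSTF11 were lower at 0.373 to 0.493.

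UGT73B4 (AT2G15490), a glycosyltransferase of the group that acts on flavonols and on foreign compounds, was listed at 30.1, 25.8 and 31.3 FPKM with doxycycline, against 8.28, 5.69 and 6.56 FPKM in controls. Its log2 difference was 1.95 ± 0.16 (adjusted p = 0.00794), and the groups did not overlap. UGT73B3, from the same subfamily, was listed at 34.5, 26.2 and 24.3 FPKM with doxycycline, against 12.7, 15.5 and 14.5 FPKM in controls (adjusted p = 0.104). UGT84A1 (AT4G15480), which glucosylates hydroxycinnamic acids, was listed at 14.4, 7.87 and 11.3 FPKM with doxycycline, against 2.27, 2.65 and 2.55 FPKM in controls (log2 difference 1.77 ± 0.21, adjusted p = 0.0412). Without doxycycline 1 the adjusted p of UGT73B4 was 0.0924. The UGT84A1 call was among the least stable, with an adjusted p up to 0.218 when a library was left out. Over the 102 tested UDP-glycosyltransferases, 11 were higher and 3 lower at an unadjusted p under 0.05, with a median log2 difference of 0.09. UGT71C1 was the member furthest in the other direction at a small p, at 4.65, 5.60 and 6.34 FPKM with doxycycline, against 9.65, 12.4 and 13.9 FPKM in controls (adjusted p = 0.123). AT2G32020, an acyl-CoA N-acyltransferase by its annotation, was listed at 14.6, 8.44 and 9.37 FPKM with doxycycline, against 1.85, 1.76 and 2.73 FPKM in controls (adjusted p = 0.0412, or 0.209 without doxycycline 3).

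The sequence TGACG, which TGA-type bZIP factors bind in promoters of detoxification genes, was present in 9 of the 21 risen genes with a promoter (42.9%) and in 2 of the 12 fallen ones (16.7%), against 19.3% of tested promoters. The windows of GSTU24, GSTU25 and UGT73B4 are shown because these had the smallest adjusted p among the conjugating enzymes. Capitals mark the match, on the strand of the gene in all 3, and for UGT73B4 the nearer of its 2 matches to the start is printed.
GSTU24, chr1:5869351-5869410, plus strand: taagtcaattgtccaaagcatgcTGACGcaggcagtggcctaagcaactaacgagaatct
GSTU25, chr1:5871914-5871973, plus strand: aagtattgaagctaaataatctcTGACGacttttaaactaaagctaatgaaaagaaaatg
UGT73B4, chr2:6761489-6761548, plus strand: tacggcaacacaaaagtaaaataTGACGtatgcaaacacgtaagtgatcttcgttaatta

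Mitochondrial proteins formed the next group. NDB2 (AT4G05020), an external NAD(P)H dehydrogenase that feeds electrons to the alternative oxidase, was listed at 18.7, 20.7 and 19.9 FPKM with doxycycline, against 9.28, 8.76 and 8.87 FPKM in controls. Within each group the values differed by little, and NDB2 rose by 1.06 ± 0.11 on the log2 scale (adjusted p = 0.0190). AT5G54100, a membrane protein with an SPFH/Band 7 domain, was listed at 30.2, 26.3 and 26.9 FPKM with doxycycline, against 11.8, 11.3 and 9.42 FPKM in controls (log2 difference 1.29 ± 0.13, adjusted p = 0.0163). AT12CYS-2 (AT5G09570), a small protein with paired cysteines, was listed at 22.04, 25.4 and 10.9 FPKM with doxycycline, against 1.69, 1.81 and 1.12 FPKM in controls (adjusted p = 0.0206). The adjusted p reached 0.150 for NDB2 without doxycycline 2, and 0.1395 for AT5G54100 and 0.165 for AT12CYS-2 without doxycycline 1. A close relative of the last gene, AT12CYS-1, was at 374, 318 and 333 FPKM with doxycycline, against 331, 343 and 293 FPKM in controls, and the groups overlapped (adjusted p = 0.863). UPOX, another small mitochondrial protein induced by oxidative stress, was listed at 106.6, 84.7 and 86.3 FPKM with doxycycline, against 20.8, 8.44 and 33.8 FPKM in controls (adjusted p = 0.152). The spread among controls was wide for UPOX, although no value overlapped.

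Other members of the retrograde list did not pass singly. AOX1A was listed at 79.3, 59.1 and 71.4 FPKM with doxycycline, against 24.0, 22.1 and 43.5 FPKM in controls (log2 difference 1.26 ± 0.25, adjusted p = 0.188). The transcription factor genes NAC13 and NAC053 had log2 differences of 0.86 and 0.79 at adjusted p values of 0.153 and 0.0797. NAC017, another NAC gene of the list, overlapped at 20.1, 24.1 and 20.7 FPKM with doxycycline, against 21.97, 21.2 and 15.5 FPKM in controls. HSP23.5 stood at 41.8, 25.1 and 27.2 FPKM with doxycycline, against 8.51, 10.1 and 15.6 FPKM in controls (adjusted p = 0.151). Of the 19 members tested, 4 were called higher, 16 had an unadjusted p under 0.05, and 19 had a log2 difference above 0, with a median of 1.26. NDB4, an alternative dehydrogenase below the filter, was listed at 1.502, 1.01 and 1.96 FPKM with doxycycline, against 0.0646, 0 and 0 FPKM in controls. Mitochondrial chaperones were mixed, and none passed: mtHsc70-1 was at 179.5, 161 and 181 FPKM with doxycycline, against 108, 109 and 143 FPKM in controls (adjusted p = 0.331), and HSP60-2 had a log2 difference of 0.37 (adjusted p = 0.406). HSP23.6-MITO, a small heat shock protein of mitochondria, overlapped at 4.33, 0.180 and 0.452 FPKM with doxycycline, against 0.893, 0 and 0.789 FPKM in controls. The list was assembled with earlier results of these data known, so its counts are a description.

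Among NAC transcription factors, 9 of 52 tested were higher and 0 were lower at an unadjusted p under 0.05, and none was called. Besides NAC13 and NAC053 these were NAC003, NAC042, NAC044, ANAC026, NAC6, NAC102 and ATAF2. NAC003 was listed at 7.87, 10.2 and 12.1 FPKM with doxycycline, against 4.25, 4.26 and 6.22 FPKM in controls (adjusted p = 0.246). NAC044, known from the DNA damage response, was listed at 2.30, 4.09 and 3.57 FPKM with doxycycline, against 0.659, 0.672 and 1.75 FPKM in controls (adjusted p = 0.348). ERF71, an ethylene response factor gene of the hypoxia response, was listed at 15.3, 14.8 and 18.6 FPKM with doxycycline, against 3.45, 2.15 and 5.71 FPKM in controls (log2 difference 1.92, adjusted p = 0.0684). The hypoxia list as a whole was mixed. PDC1, pyruvate decarboxylase, was at 61.0, 44.9 and 90.9 FPKM with doxycycline, against 22.7, 30.8 and 30.8 FPKM in controls (adjusted p = 0.244), but ADH1, alcohol dehydrogenase, was at 114, 90.6 and 184 FPKM with doxycycline, against 84.97, 129 and 146 FPKM in controls. Of its 12 genes, 2 were higher at an unadjusted p under 0.05, 3 lay wholly above the controls, and the median was 0.27. Over all genes tested, 3.84% were higher by that p and 8.51% lay wholly above.

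Among the risen genes, 3 loci were listed at 0 in every control library and above 0 in every doxycycline library, so no fold is given. AT3G54530, an uncharacterized gene, was listed at 7.76, 11.5 and 7.30 FPKM with doxycycline (adjusted p = 0.00444). AT2G03130, annotated as a short relative of ribosomal protein L12, was listed at 4.54, 5.66 and 3.56 FPKM with doxycycline (adjusted p = 0.0140). ATCG00230, a chloroplast locus with no entry in the annotation used, was listed at 124, 257 and 161 FPKM with doxycycline (adjusted p = 0.000127), which is the 1 to 2 to 1 ratio of steps given above. The reverse held for AT1G74456, a small nucleolar RNA gene of 82 nt, which was listed at 0 in all doxycycline libraries, against 74.3, 212 and 197 FPKM in controls (adjusted p = 0.00149), again in the ratio 1 to 2 to 1. The small p of both loci cannot be taken as a measure of how large or sure the difference is. The library preparation selected polyadenylated RNA, and 1 read counts for more FPKM the shorter the transcript. Other small nucleolar RNA genes pointed both ways: AT3G01316 was at 118, 245 and 154 FPKM with doxycycline, against 101, 0 and 0 FPKM in controls (steps of 1, 2 and 1 against 1, 0 and 0), and AT1G20015 was at 0, 67.4 and 0 FPKM with doxycycline, against 168, 240 and 296 FPKM in controls. Over the 46 such genes tested, 3 were higher and 7 lower at an unadjusted p under 0.05. AT2G38823, also uncharacterized, was listed at 14.5, 7.23 and 10.3 FPKM with doxycycline, against 0.631, 0.450 and 0 FPKM in controls, and it rose with an adjusted p of 0.0146. Its adjusted p was 0.127 without doxycycline 3, and that of AT2G03130 was 0.106 without doxycycline 1.

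The remaining risen genes belonged to different pathways. ZIP2 (AT5G59520), a zinc and manganese transporter of root cells, was at 48.8, 46.9 and 50.8 FPKM with doxycycline, against 25.4, 25.3 and 28.8 FPKM in controls, a log2 difference of 0.86 ± 0.10 (adjusted p = 0.0410). DJ1A (AT3G14990), a DJ-1 family protein linked to oxidative stress, was the most abundant gene called, at 453, 429 and 455 FPKM with doxycycline, against 273, 265 and 254 FPKM in controls (adjusted p = 0.0481). In both genes the 3 libraries of a group lay close together and the groups did not overlap. Both calls were kept only without control 3 when libraries were left out, and the adjusted p reached 0.263 for ZIP2 and 0.325 for DJ1A without doxycycline 1. AT5G13210, a conserved protein of unknown function, was listed at 8.24, 6.46 and 5.34 FPKM with doxycycline, against 1.21, 0.450 and 1.25 FPKM in controls (adjusted p = 0.0429). AT4G04990, also of unknown function, was listed at 5.78, 5.47 and 5.33 FPKM with doxycycline, against 1.32, 1.05 and 0.388 FPKM in controls (adjusted p = 0.0481). Without doxycycline 1 the adjusted p was 0.271 for AT5G13210 and 0.312 for AT4G04990.

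**Figure D1:**
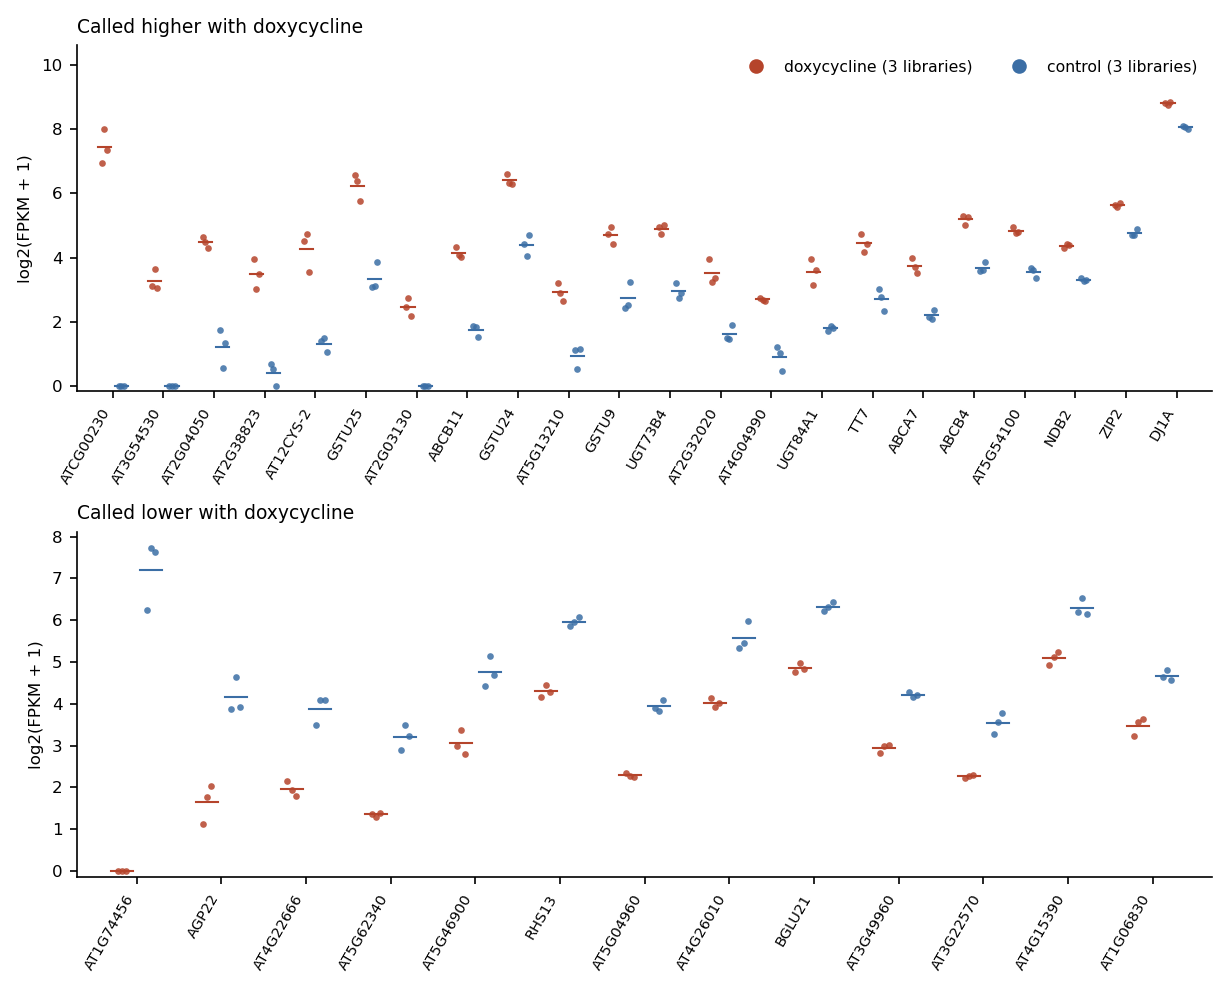
Values of the 35 called genes in each library on the log2(FPKM + 1) scale, doxycycline left of control for each gene, with points for libraries and a bar for the group mean. The upper panel holds the 22 genes that rose and the lower panel the 13 that fell, each sorted by the size of the difference; in no gene do the groups overlap.

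Genes of flavonol synthesis were higher with doxycycline, and 1 of them passed. The pathway begins from phenylalanine with PAL, C4H and 4CL, which also supply lignin, and branches off at chalcone synthase, encoded by TT4. TT7 (AT5G07990), the cytochrome P450 that hydroxylates the flavonoid B ring, was the member that passed. It was listed at 25.5, 17.2 and 20.6 FPKM with doxycycline, against 7.07, 5.91 and 4.05 FPKM in controls, and rose by 1.74 ± 0.21 on the log2 scale (adjusted p = 0.0425). Without doxycycline 1 its adjusted p was 0.271, and the call was kept only without control 3. Upstream of it, TT4 was at 747, 518 and 761 FPKM with doxycycline, against 470, 288 and 314 FPKM in controls (adjusted p = 0.313). TT5, chalcone isomerase, was at 92.9, 64.1 and 108 FPKM with doxycycline, against 52.8, 35.1 and 54.8 FPKM in controls (adjusted p = 0.394). F3H and FLS1, the next enzymes towards flavonols, had log2 differences of 0.92 and 0.93 at adjusted p values of 0.259 and 0.348. In all 5 of these genes every doxycycline library lay above every control library.

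The anthocyanin branch was mixed. DFR was at 8.36, 9.003 and 15.4 FPKM with doxycycline, against 12.1, 5.27 and 16.0 FPKM in controls, and UGT75C1 was at 6.02, 5.52 and 8.001 FPKM with doxycycline, against 6.90, 3.94 and 4.90 FPKM in controls, so both overlapped. LDOX was at 4.86, 4.44 and 6.49 FPKM with doxycycline, against 3.84, 3.84 and 3.69 FPKM in controls, with no overlap but without passing (adjusted p = 0.606). The regulators also differed from each other. MYB12, an activator of flavonol genes, was at 15.3, 10.6 and 15.9 FPKM with doxycycline, against 6.98, 5.46 and 4.40 FPKM in controls (adjusted p = 0.123), whereas MYB111, its relative, was at 5.46, 4.08 and 2.71 FPKM with doxycycline, against 3.66, 3.89 and 4.48 FPKM in controls. PAP1 and MYB90, activators of anthocyanin genes, were below the filter, with no value above 1.31 FPKM in any library. Of the 12 pathway genes tested, 1 was called, 7 were higher and 0 lower at an unadjusted p under 0.05, and the median was 0.71. Phenylpropanoid and lignin genes were listed together, so the 16 tested also held shared first steps such as PAL1 and PAL2. Of them, 5 were higher at an unadjusted p under 0.05, 6 lay wholly above the controls and 0 were called. Over all genes tested, 3.84% were higher by that p and 8.51% lay wholly above. The median of the 16 genes was 0.13, against 0.71 for the flavonoid and anthocyanin list. PAL1 was at 172.5, 133 and 171 FPKM with doxycycline, against 117, 85.5 and 98.8 FPKM in controls (adjusted p = 0.293), and 4CL3, the isoform that serves flavonoids, was at 31.0, 24.5 and 35.3 FPKM with doxycycline, against 22.7, 20.7 and 17.2 FPKM in controls (adjusted p = 0.457). HCT, the first enzyme specific to lignin monomers, had a log2 difference of -0.0031. ELIP1, an early light-induced protein of chloroplasts, stood beside this group at 15.6, 11.0 and 17.6 FPKM with doxycycline, against 7.92, 5.44 and 5.25 FPKM in controls (adjusted p = 0.153).

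**Figure D2:**
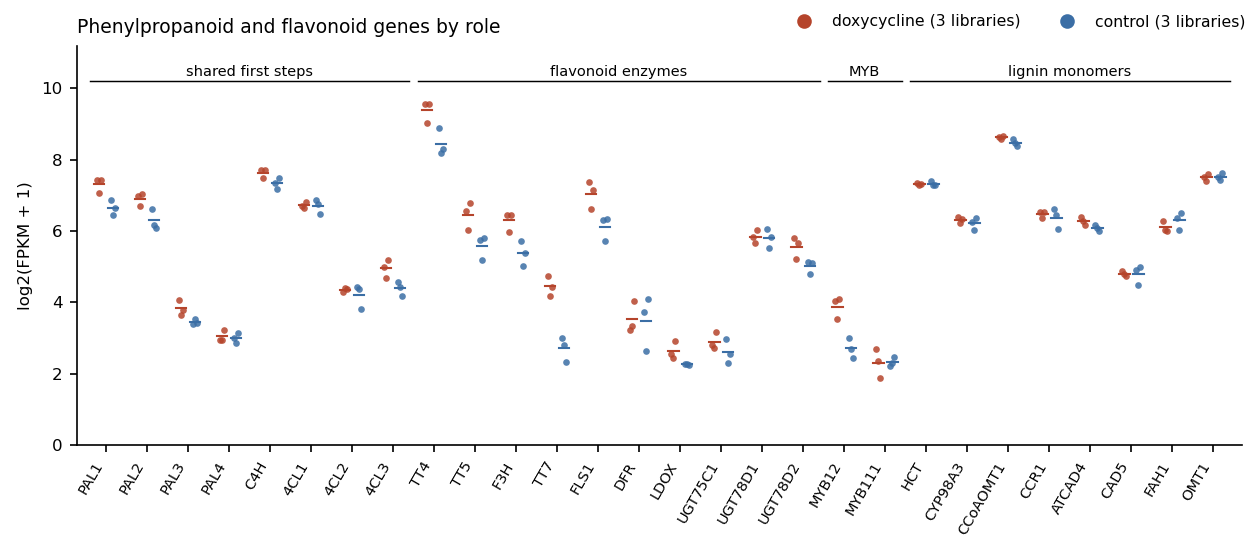
Values of 28 phenylpropanoid and flavonoid genes in each library on the log2(FPKM + 1) scale, in the order of their roles, doxycycline left of control, with points for libraries and a bar for the group mean. TT4, TT5, F3H, TT7, FLS1 and MYB12 stand apart between the groups, while DFR, UGT75C1 and MYB111 and most lignin genes overlap.

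Genes of root hair walls were lower with doxycycline as a group. Root hairs are tubular outgrowths of the root epidermis, and their growth needs wall-loosening expansins, extensin-like structural proteins, peroxidases and enzymes that rework xyloglucan and pectin. RHS13 (AT4G02270), a root hair wall protein, was at 16.8, 20.9 and 18.5 FPKM with doxycycline, against 57.1, 61.4 and 66.1 FPKM in controls (log2 difference -1.67 ± 0.12, adjusted p = 0.00582; 0.0523 without doxycycline 3). It was the only one of the 18 listed genes that was called, but 16 of the 18 were lower at an unadjusted p under 0.05 and 15 lay wholly below the controls. All 18 had a log2 difference below 0, with a median of -1.13 that became -1.11 after the length trend was taken out. EXPA18, an expansin of root hairs, was at 9.21, 7.05 and 6.11 FPKM with doxycycline, against 17.8, 17.8 and 15.1 FPKM in controls (adjusted p = 0.0736). LRX1, an extensin chimera of the hair wall, was at 3.88, 5.20 and 3.45 FPKM with doxycycline, against 12.8, 11.6 and 8.85 FPKM in controls (adjusted p = 0.0797). PRP3, a proline-rich protein of hair walls, was at 13.7, 17.9 and 19.98 FPKM with doxycycline, against 58.6, 54.9 and 35.2 FPKM in controls (adjusted p = 0.0773).

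The summed level of the 18 genes was 117 to 139 FPKM with doxycycline, against 283 to 356 FPKM in controls. In RNA of whole seedlings, fewer root hairs and less RNA per hair cannot be told apart. The regulators upstream were mixed, and RHD6 and GL2 overlapped between the groups. RHD6, which starts hair development, was at 2.62, 2.83 and 1.85 FPKM with doxycycline, against 1.82, 3.35 and 2.76 FPKM in controls, and GL2, which marks hairless cells, was at 5.54, 5.79 and 7.003 FPKM with doxycycline, against 6.90, 8.74 and 6.56 FPKM in controls. RSL2, a growth regulator downstream of RHD6, was at 1.27, 1.53 and 1.38 FPKM with doxycycline, against 2.18, 3.11 and 4.09 FPKM in controls (adjusted p = 0.450). RSL4, its relative, was at 0.785, 0.408 and 1.03 FPKM with doxycycline, against 1.69, 1.13 and 2.69 FPKM in controls (adjusted p = 0.587). Both RSL2 and RSL4 lay wholly below the controls, at 0.445 and 0.403 of the control means, without passing. Markers of the other cell types moved less. The 17 Casparian strip and suberin genes of the root endodermis summed to 192 to 213 FPKM with doxycycline, against 208 to 232 FPKM in controls. The stomatal genes summed to 43.5 to 48.3 FPKM with doxycycline, against 47.9 to 50.4 FPKM in controls. The Calvin-Benson genes of green tissue summed to 27549 to 33981 FPKM with doxycycline, against 27244 to 34497 FPKM in controls. Flower organ genes summed to at most 7.18 FPKM in any library and seed storage genes to at most 0.0838 FPKM, with SESA1, CRU2, CRU3 and OLEO1 at 0 in all 6, as the label of a seedling implies.

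**Figure D3:**
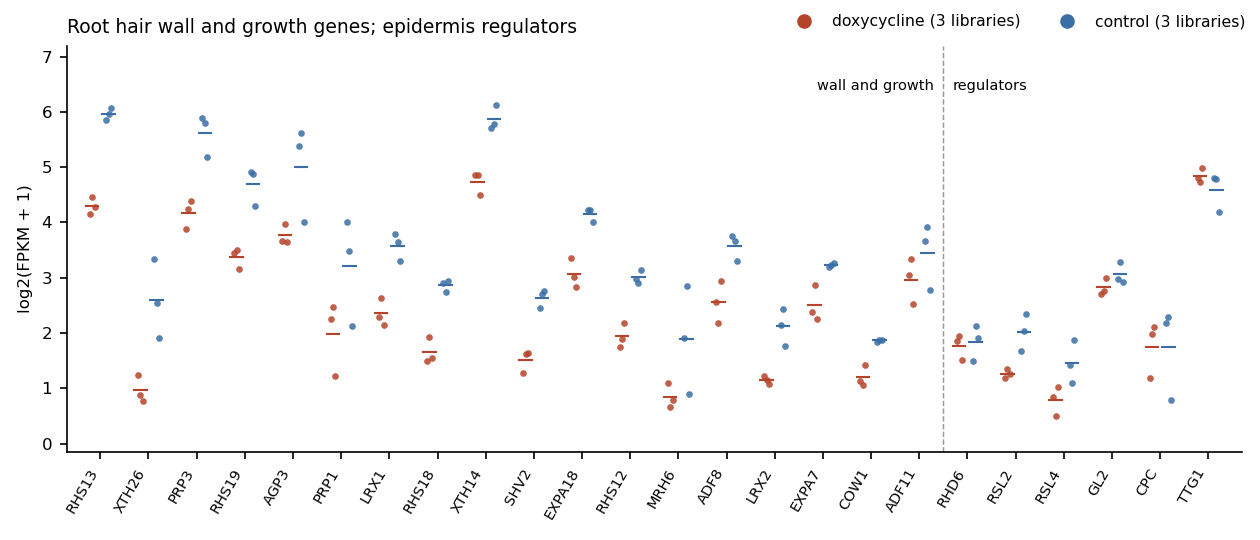
Values of 18 root hair wall and growth genes and 6 epidermis regulators in each library on the log2(FPKM + 1) scale, doxycycline left of control, with points for libraries and a bar for the group mean. RHS13 is the gene that was called; the regulators RHD6, GL2, CPC and TTG1 overlap between the groups.

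Root hair promoters are known to carry a short root hair element. Its core was searched as TGNNNNCACG or TGNNNNNCACG on both strands of the same 250 bases. It was present in 11 of the 18 listed genes (61.1%) and in 4 of 12 fallen genes with a promoter (33.3%), against 9.10% of tested promoters. Because the element is known from root hair promoters, the share in the listed genes is a description and not an independent result. The core was also present in 7 of the 21 risen genes (33.3%) and in 36.8% of the 19 tested members of the retrograde list. A mitochondrial dysfunction motif that ends in CACG contains this core, so the shares are not independent. Among the risen genes such a match was found in AT2G38823 and AT5G54100. The core in AT2G04050, UGT73B4, DJ1A, ABCA7 and NDB2 did not come with one. The windows of the called gene and of 3 other members are shown; capitals mark the match, and in PRP3 it lies on the opposite strand.
RHS13, chr4:993209-993268, minus strand: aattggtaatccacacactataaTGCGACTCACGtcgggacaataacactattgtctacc
EXPA18, chr1:23331503-23331562, plus strand: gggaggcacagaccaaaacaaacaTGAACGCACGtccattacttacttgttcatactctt
PRP3, chr3:23182534-23182593, plus strand: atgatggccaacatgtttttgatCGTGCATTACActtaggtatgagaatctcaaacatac
XTH14, chr4:13130220-13130279, plus strand: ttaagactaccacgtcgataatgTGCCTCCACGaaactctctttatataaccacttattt
XTH14, a xyloglucan-modifying enzyme, was at 27.9, 27.8 and 21.7 FPKM with doxycycline, against 51.2, 54.1 and 68.6 FPKM in controls (adjusted p = 0.0611).

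Outside that list, the genes that fell included pectin-modifying, arabinogalactan, peroxidase and lipid-transfer proteins. AT5G04960, annotated as a pectin methylesterase and inhibitor protein, was at 4.05, 3.84 and 3.74 FPKM with doxycycline, against 14.0, 13.2 and 15.9 FPKM in controls. It fell to 3.88 FPKM on the mean with doxycycline, against 14.4 FPKM in controls (log2 difference -1.65 ± 0.13, adjusted p = 0.00704). AT5G62340, of the same superfamily, was at 1.59, 1.46 and 1.61 FPKM with doxycycline, against 6.37, 10.2 and 8.44 FPKM in controls (adjusted p = 0.0206). AGP22, an arabinogalactan protein, was at 1.17, 2.43 and 3.06 FPKM with doxycycline, against 13.8, 24.0 and 14.2 FPKM in controls (adjusted p = 0.0393). All 3 had groups that did not overlap. Their calls were kept in 3, 2 and 1 of the 6 fits that left out a library, with a highest adjusted p of 0.0679, 0.143 and 0.186.

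Peroxidases of the secreted class, which cross-link or loosen walls with hydrogen peroxide, included further fallen genes. AT3G49960 was at 6.07, 6.88 and 7.07 FPKM with doxycycline, against 18.3, 16.8 and 17.6 FPKM in controls (log2 difference -1.28 ± 0.12, adjusted p = 0.0128). AT4G26010 was at 16.7, 14.2 and 15.3 FPKM with doxycycline, against 39.3, 42.5 and 62.0 FPKM in controls (log2 difference -1.56 ± 0.18, adjusted p = 0.0373). Both calls were kept only without control 3 when libraries were left out, and the adjusted p reached 0.106 for AT3G49960 and 0.2105 for AT4G26010. AT1G34510 did not pass and was at 0.120, 0.748 and 0.470 FPKM with doxycycline, against 5.27, 5.61 and 2.74 FPKM in controls (adjusted p = 0.0797). Of 65 tested genes with peroxidase in their product name, 2 were called lower, and 17 were lower against 4 higher at an unadjusted p under 0.05, with a median of -0.17. This name also covers genes that are not wall peroxidases, such as DOX1 (AT3G01420), an alpha-dioxygenase of oxylipin synthesis that was at 138, 148 and 138 FPKM with doxycycline, against 57.0, 65.7 and 85.9 FPKM in controls (adjusted p = 0.0754).

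Xyloglucan-modifying enzymes and water channels went the same way with no gene called. Of 25 XTH genes tested, XTH14 of the root hair list included, 8 had an unadjusted p under 0.05, all of them lower. Wholly below the controls lay 10, and the median was -0.32. Over all genes tested, 4.65% were lower at an unadjusted p under 0.05 and 7.48% lay wholly below. XTH12 was at 0.702, 1.60 and 2.02 FPKM with doxycycline, against 6.16, 8.11 and 8.65 FPKM in controls (adjusted p = 0.0602), and XTH13 was at 0.555, 1.15 and 0.483 FPKM with doxycycline, against 7.16, 7.50 and 3.37 FPKM in controls (adjusted p = 0.0797). XTH12, XTH13 and XTH14 are near copies whose reads may be split. Of 27 aquaporins, the membrane channels for water, 8 had an unadjusted p under 0.05, all of them lower, 11 lay wholly below the controls, and the median was -0.24. TIP2;3, a channel of the root vacuole, was at 2.56, 2.07 and 4.09 FPKM with doxycycline, against 8.20, 15.7 and 10.7 FPKM in controls (adjusted p = 0.0960). PIP2B, an abundant channel of the plasma membrane, was at 127, 138 and 142 FPKM with doxycycline, against 199, 231.5 and 203 FPKM in controls (adjusted p = 0.105). Of 21 expansins tested, the root hair genes EXPA7 and EXPA18 included, 6 had an unadjusted p under 0.05, all lower, and 0 were called.

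BGLU21 (AT1G66270), a beta-glucosidase found in endoplasmic reticulum bodies of roots, was the abundant gene that fell most clearly. It was at 26.1, 30.6 and 27.4 FPKM with doxycycline, against 73.4, 78.1 and 86.1 FPKM in controls (log2 difference -1.47 ± 0.11, adjusted p = 0.00704). The call was lost without doxycycline 1 (0.0679) and without doxycycline 3 (0.0612). Its neighbour and near copy BGLU22 was at 23.1, 27.6 and 25.2 FPKM with doxycycline, against 52.2, 40.8 and 53.5 FPKM in controls (adjusted p = 0.0754), and reads of the pair may be split between them. AT4G15390, an acyltransferase of the HXXXD type, was at 29.4, 33.5 and 36.6 FPKM with doxycycline, against 72.0, 92.0 and 70.4 FPKM in controls (adjusted p = 0.0397). AT1G06830, a small glutaredoxin, was at 8.36, 10.7 and 11.4 FPKM with doxycycline, against 24.0, 26.9 and 22.7 FPKM in controls (adjusted p = 0.0412). The adjusted p was 0.225 for AT4G15390 without doxycycline 1 and 0.198 for AT1G06830 without control 2.

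Lipid-transfer proteins, small secreted proteins that carry lipids to surfaces, supplied 3 genes that fell. AT4G22666 was at 3.41, 2.83 and 2.49 FPKM with doxycycline, against 10.2, 15.9 and 16.1 FPKM in controls (adjusted p = 0.0224). AT3G22570 was at 3.70, 3.84 and 3.93 FPKM with doxycycline, against 8.76, 10.8 and 12.7 FPKM in controls (adjusted p = 0.0428). AT5G46900 was at 7.003, 9.27 and 5.99 FPKM with doxycycline, against 20.6, 34.1 and 24.8 FPKM in controls (adjusted p = 0.0481). The adjusted p reached 0.154 for AT4G22666 without doxycycline 2, and 0.2765 for AT3G22570 and 0.321 for AT5G46900 without doxycycline 1. The neighbour of AT5G46900, AT5G46890, was at 8.36, 8.97 and 4.51 FPKM with doxycycline, against 22.8, 33.3 and 20.4 FPKM in controls (adjusted p = 0.0893). EARLI1, a member of the same superfamily, was on the other side, at 180, 151 and 173.5 FPKM with doxycycline, against 137, 111 and 75.1 FPKM in controls (adjusted p = 0.484). The 70 tested members had 15 genes lower and 4 higher by the unadjusted test, but their transcripts are short, and their median of -0.08 became 0.01 once the length trend was taken out.

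Metal, hormone and nutrient lists gave few values beyond the background. In the iron list of 18 tested genes, 1 was higher and 1 lower at an unadjusted p under 0.05. IMA1, a peptide gene of the iron-deficiency response, was at 3.15, 2.80 and 2.94 FPKM with doxycycline, against 19.8, 8.30 and 15.4 FPKM in controls (adjusted p = 0.0736). In other genes of that response control 1 stood apart. BHLH100 was at 1.90, 3.53 and 10.1 FPKM with doxycycline, against 44.1, 3.66 and 1.51 FPKM in controls, and IRT1, the root iron transporter, was at 2.98, 0.640 and 3.76 FPKM with doxycycline, against 16.0, 1.26 and 0.703 FPKM in controls. In both, control 1 was the highest of the 6 libraries, and the groups overlapped. Of 9 cytokinin-response genes tested, 1 had a log2 difference above 0, 2 were lower at an unadjusted p under 0.05, and the median was -0.25. HRS1, a regulator of root growth under low phosphate that responds to nitrate, was at 11.7, 10.3 and 10.5 FPKM with doxycycline, against 16.6, 16.4 and 14.4 FPKM in controls (adjusted p = 0.274).

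Counts for families of the organelles' own machinery are set beside the shares over all genes tested. Those shares were 0.115% called higher and 0.0682% called lower. At an unadjusted p under 0.05 they were 3.84% higher and 4.65% lower, and for groups wholly apart 8.51% above and 7.48% below. With shares of calls this small, a family with 0 or 1 called does not differ visibly from the rest. Among 256 tested pentatricopeptide repeat proteins, which process organelle transcripts, 18 were higher and 3 lower at an unadjusted p under 0.05, 40 lay wholly above the controls and 5 wholly below, and 0 were called. Their median was 0.13, or 0.10 after the length trend was taken out. EMB2217 was at 6.40, 6.59 and 5.55 FPKM with doxycycline, against 4.07, 2.46 and 3.81 FPKM in controls (adjusted p = 0.373), and PPR596 was at 20.4, 18.8 and 25.2 FPKM with doxycycline, against 14.8, 16.2 and 16.5 FPKM in controls (adjusted p = 0.490). Of 97 tested loci encoded in the plastid genome, 8 were higher and 15 lower by the unadjusted p, and ATCG00230 was the 1 called. ATCG00020 was at 685, 830.1 and 802 FPKM with doxycycline, against 1001, 1193 and 1747 FPKM in controls (adjusted p = 0.445). ATCG00350 was at 22.2, 30.7 and 26.9 FPKM with doxycycline, against 39.9, 46.3 and 57.4 FPKM in controls (adjusted p = 0.205). In both, control 3 was the highest of the 6 libraries and no values overlapped. Of 31 mitochondrion-encoded loci, 2 were higher and 1 lower by the same measure. Aminoacyl-tRNA synthetases had a median of 0.08 with 2 of 50 higher at an unadjusted p under 0.05. Ribosomal proteins of all compartments had 16 higher and 15 lower of 332. The lists of photosynthesis stood near 0, with medians of 0.08 for the Calvin-Benson cycle, 0.11 for photorespiration and 0.05 for tetrapyrrole synthesis, and 0 genes called among them. Light-harvesting proteins had a median of -0.17, of which -0.11 remained without the length trend.

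**Figure D4:**
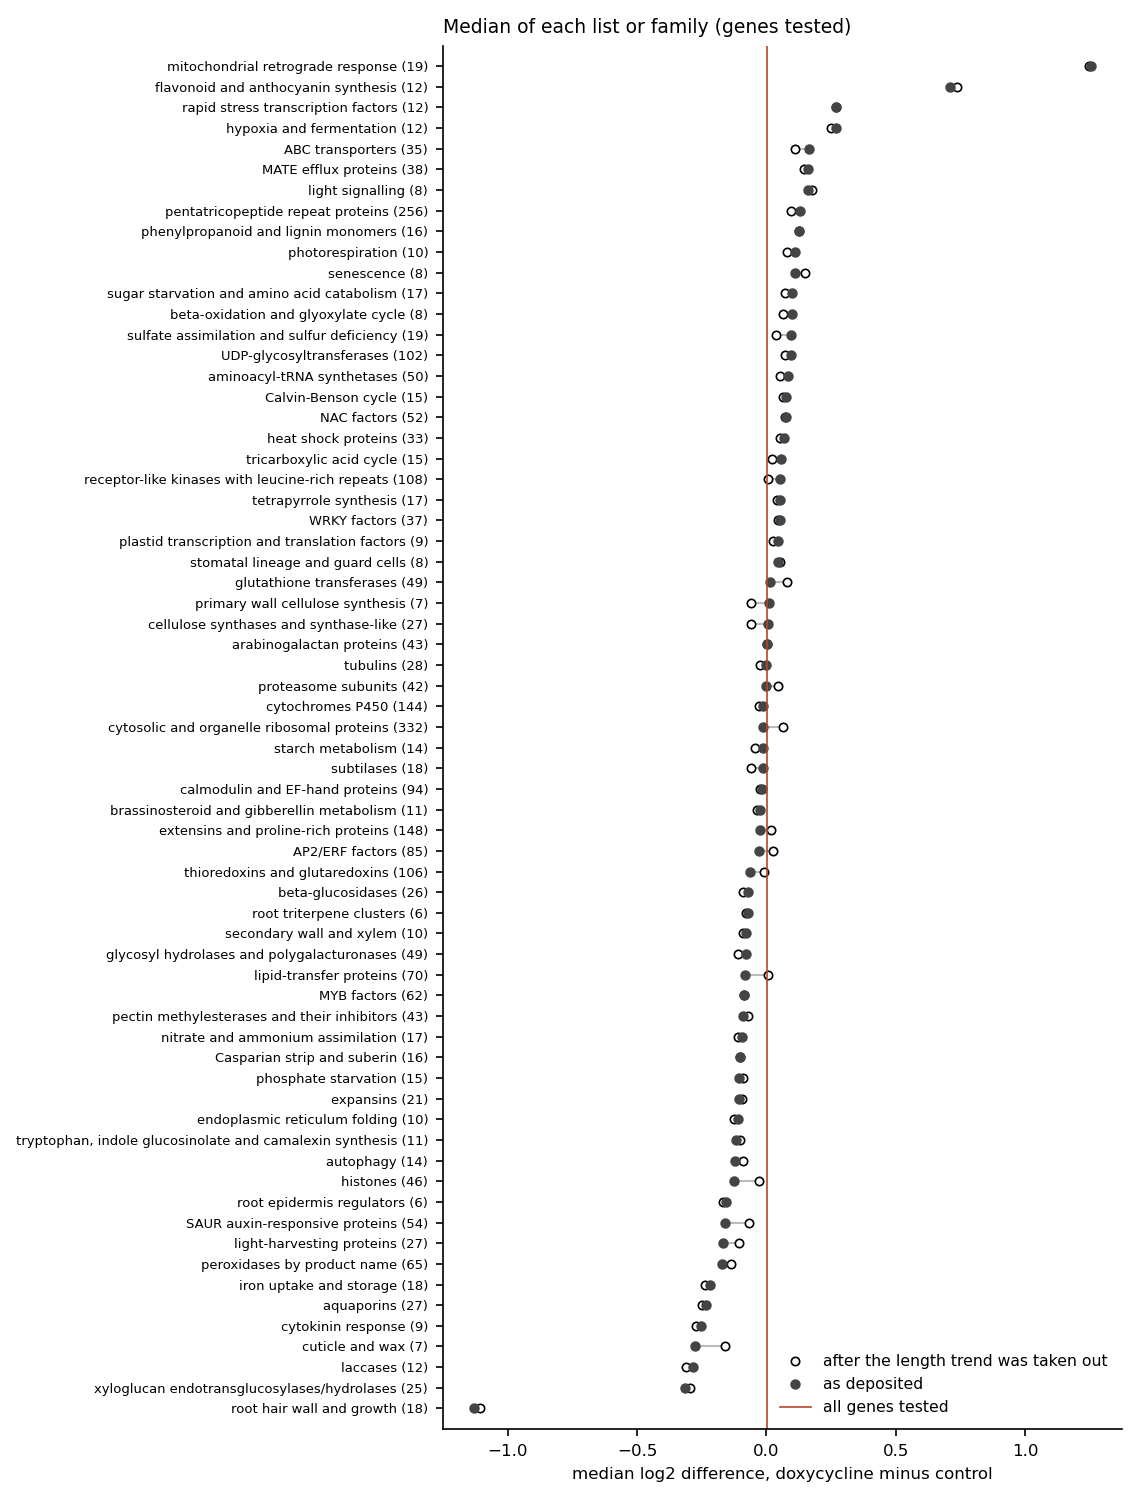
Median log2 difference, doxycycline minus control, of each gene list and product-name family with at least 6 genes tested, before (filled) and after (open) the trend with transcript length was taken out; the red line is the median of all genes tested. The retrograde list at 1.26 and the root hair list at -1.13 stand furthest out and barely move, whereas short-transcript families such as histones and SAUR proteins move towards 0.

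The differences did follow transcript length. Across the 18891 tested genes with a known length, Spearman's rho between the log2 difference and length was 0.210. Genes are not independent replicates, so no p is given for it. The genes were divided by length into 10 bins of equal size. In the shortest bin (72 to 889 nt) the median log2 difference was -0.13 and 35.6% of genes were above 0. In the longest bin (3123 to 16593 nt) the median was 0.06 and 66.3% were above 0. The median climbed at every step between them. The size was small beside the called differences.

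At the tails, the unadjusted test changed with length mainly in its lower calls. Among the shortest bin, 11.5% of genes were lower at an unadjusted p under 0.05, against 0.476% among the longest. The share that was higher ranged only from 2.70% to 4.34% over the bins. Of the 13 fallen genes, 7 were in the shortest bin, which held 1 of the risen ones, while the longest bin held 0 fallen and 3 risen genes. Counts of groups that did not overlap changed on both sides: genes wholly below the controls numbered 233 in the shortest bin and 47 in the longest, and genes wholly above numbered 75 and 280.

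Each doxycycline library showed the trend against the mean of the controls, with rho of 0.129, 0.176 and 0.214. In the shortest bin their medians were -0.09, -0.10 and -0.19, and in the longest 0.04, 0.07 and 0.08. Libraries of 1 group also differed among themselves, but by less: against the other 2 of its own group, rho was -0.0986, -0.00890 and 0.0859 for the doxycycline libraries and 0.0555, -0.0205 and -0.0235 for the controls. Leaving out any 1 library kept rho between 0.168 and 0.221. The trend was present at all levels of expression and was steepest in abundant genes, with rho of 0.1004 among genes of low mean FPKM, 0.224 in the middle class and 0.307 in the high class, the classes being of about equal size. It was 0.215 among protein-coding genes of at least 300 nt. GC content gave a rho of 0.115 and itself rose with length (rho 0.221), and exon number gave 0.0726. The mrpl1-1 mutants, set against the same controls in a table that was normalized separately, showed the opposite sign, with rho of -0.163 and medians of 0.03 in the shortest bin and -0.13 in the longest. That sign rested on mrpl1-1 replicate 2, at -0.299, while replicates 1 and 3 were at 0.0519 and 0.00383.

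The families most exposed were those made of short transcripts. Histones, with a median length of 856 nt, had a median log2 difference of -0.13, which became -0.03 when the trend was taken out of each library. SAUR auxin-responsive genes, at 836.5 nt, had -0.16, which became -0.07. For ribosomal proteins the median changed sign, at -0.01 as deposited and 0.06 without the trend, and for thioredoxins and glutaredoxins it was -0.06 and -0.01. The lists that led the comparison did not depend on it: the medians without the trend were 1.25 for the retrograde list, 0.74 for the flavonoid list and -1.11 for the root hair list. With the trend taken out, 34 genes were called, 24 higher and 10 lower, and 31 of these were among the 35. Beside ATCG00230, which has no annotated length, the calls lost were AT1G06830 (adjusted p = 0.0762), AT3G22570 (0.0620) and AT5G46900 (0.0536), fallen genes with transcripts of 550, 657 and 756 nt.

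**Figure D5:**
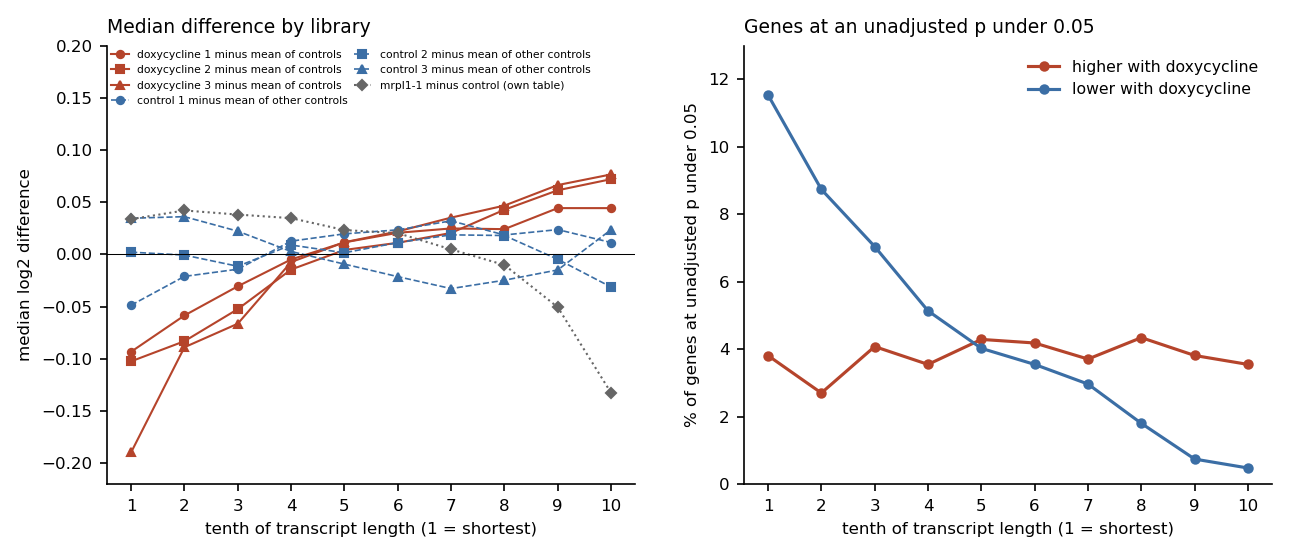
Left, median log2 difference in each of 10 bins of transcript length, for each doxycycline library minus the mean of the controls, each control minus the mean of the other controls, and the mrpl1-1 contrast in its own table. Right, percent of genes in each bin that were higher or lower with doxycycline at an unadjusted p under 0.05; the lower share drops from 11.5% in the shortest bin to 0.476% in the longest, while the higher share stays between 2.70% and 4.34%.

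Sequencing depth was estimated from the smallest steps between FPKM values and was lowest in control 3, where 3.602 fragments were counted for every 9.56 in control 1; the doxycycline libraries lay between, at 8.21, 7.91 and 6.29 on the same scale, and control 2 at 6.68. A single read on a transcript of 1 kb was worth 0.131 to 0.347 FPKM, the largest value being in control 3. That library listed 299 of the tested genes at 0, against 122 and 147 in the other controls and 126 to 166 in the doxycycline libraries. Its values correlated with the other controls at 0.932 to 0.935 on the log scale, against 0.966 between controls 1 and 2. Control 1 correlated with the doxycycline libraries at 0.960 to 0.963, and these did so with each other at 0.960 to 0.966. The axis of largest variation across the 6 libraries (36.5%) set control 3, at 68.7, apart from all others, at -19.4 to -8.81. On it the doxycycline libraries, at -19.4 to -13.6, lay close to controls 1 and 2, at -11.7 and -8.81. On the next axis (22.2%) the doxycycline libraries were at 13.3 to 29.8 and the controls at -43.7 to 4.16. In UPOX and HSP23.5 control 3 was nearer to the doxycycline libraries than the other controls were.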

How the data were processed

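RNA abundance in whole Arabidopsis seedlings was measured in 3 doxycycline and 3 control libraries. The authors deposited FPKM values per locus; Cufflinks 2.2.1, FastQC 0.10.1 and the TAIR10 build are named per the submitters' processing notes, while no source used here names the aligner. Whether counting used strand is not stated either, so antisense and overlapping genes, like near-identical copies, are uncertain. FPKM are not counts, and whole reads could not be recovered (14.0% to 28.9% of values were whole within 0.01), so depth is an estimate.

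Loci averaging 1 FPKM or more over the 6 libraries were taken as log2(FPKM + 1) and tested with limma 3.58.1 in R 4.3.3 (trended variance, group only), with Benjamini-Hochberg adjustment over 19073 genes. On this scale the change of low genes is understated. Adjusted and unadjusted p values in the text come from that fit. Of the 33557 loci, 32810 matched the RefSeq TAIR10.1 annotation by identifier, which gave lengths for 18891 tested genes, product names and promoters. The length trend was removed from each library by loess (span 0.5). In data simulated with known changes, these were planted only in genes above about 5 FPKM. Of those genes, 60% planted at a log2 difference of 1 and 92% at 2 were recovered. Among 18873 genes with no planted change, 8 were called. Recovery among genes at lower FPKM was not measured.

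Genes are named because they were called, lead a ranking of size, or belong to the 36 lists and 34 product-name families; list members given by value were picked from these after their values were seen. Members and lists were chosen with earlier results of these data known, so their counts and medians are descriptions. Nothing beyond the submitters' word on replicates says how the cultures were separated, so p values measure the spread between these libraries. Alternatives changed the pseudocount, filter, scaling, variance model, weights, replicate block, length correction and the libraries included. Figures were drawn with matplotlib 3.10.9.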

Additional observations from a re-analysis of the deposited data

How the results depend on the processing

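The count of called genes, 35 (22 higher, 13 lower), depended on the model more than on scaling. It was 20 (13 higher, 7 lower) with no filter, 21 (14 and 7) with no variance trend and 126 (58 higher, 68 lower, so 46.0% higher against 62.9%) with array weights. With the replicate number as a block it was 7 (5 higher, 2 lower), and 13 (9 and 4) with the block and the length trend removed. Same-numbered libraries deviated together little (correlations of -0.0300, 0.0817 and 0.0622), although doxycycline 2 and 3 each matched the control of their own number best. The numbers were not taken to pair the samples, and a call lost under the block is not a smaller difference. Removing only the length trend gave 34 calls (70.6% higher), and 52 were called among protein-coding genes of at least 300 nt. Leaving out 1 library gave 8 to 79 calls, 4 to 38 higher and 1 to 41 lower; the 79 came without control 3 and the 8 without doxycycline 3. The rank correlation with length was 0.262 above 5 FPKM, -0.00222 once the trend was removed, with or without the block, 0.00437 when it was removed among protein-coding genes, an alternative chosen after seeing the data, and 0.168 to 0.221 when a library was left out. None of the 35 called genes changed direction in an alternative that included it, but list medians near 0 did: removing the length trend turned that of primary wall cellulose synthesis to -0.06, against 0.01, and that of ribosomal proteins to 0.06, against -0.01. The cause of these differences was not tested. Control 3 had the fewest estimated fragments, which limits low genes most.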
